A study of Drosophila melanogaster with 6 samples.

Results

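Expression of 10 genes of Drosophila haemocytes and of melanization was examined in adult males that had or had not courted a female. The genes were 3 markers of crystal cells (PPO1, PPO2 and lz) and 7 genes of plasmatocytes (Hml, He, NimC1, eater, Sr-CI, Pxn and vkg). They were found on the array through probe sets annotated to exactly 1 gene, by symbol or synonym. A probe set is the group of short oligonucleotides that reads the transcript of a gene. In all, 9 of the 10 genes had such a probe set, with 10 probe sets among the 13966 that were not controls, and He was not analysed here. The probe sets of 6 genes (PPO1, PPO2, Hml, Sr-CI, Pxn and vkg) reached a signal of 100 on 3 or more of the 6 arrays, the filter for testing, as did 8251 probe sets overall. The probe sets of lz, NimC1 and eater and the second probe set of PPO2 lay below it.

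Haemocytes are the circulating and tissue-bound blood cells of insects. Plasmatocytes engulf microbes and dying cells and secrete extracellular matrix, and they make up most of the haemocytes of the fly. Crystal cells carry large stores of prophenoloxidases, the enzyme precursors that start melanization at wounds and around invaders. A cascade of serine proteases cleaves prophenoloxidase to active phenoloxidase, which oxidises phenols to quinones that polymerise into melanin, and serpins hold the proteases in check. Active phenoloxidase also yields toxic intermediates, and its release is tightly controlled.

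Courtship-exposed males and unexposed males were all virgin Canton-S, a wild-type laboratory strain, and were 4 days old. Exposed males were housed with a virgin female for 5 min, courted her and did not mate, whereas unexposed males were handled alike with no female. Whole-body RNA of a pool of about 12 males was hybridized to each array, and 3 pools (replicates 1 to 3) were prepared of each group, with exposed and unexposed pools collected in parallel. A choice of males by courtship is described for the exposed pools alone, so that exposure and this choice cannot be told apart. In RNA of whole males, fewer haemocytes and less RNA per haemocyte cannot be told apart.

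The replicate 1 arrays stood apart from the other 4. Affymetrix arrays read a few long transcripts with probe sets near the 5′ end and near the 3′ end, and a low 5′ to 3′ ratio is a measure of shortened RNA or cDNA. For GAPDH this ratio was 0.172 on exposed array 1 and 0.519 on unexposed array 1, whereas the other arrays lay between 0.657 and 0.770. For actin it was 0.0561 on exposed array 1 and 0.173 on unexposed array 1, against 0.424 to 0.457 on the others. The 23 control probe sets for transcripts that flies do not have showed a median signal of 80.1 on exposed array 1 and 81.0 on unexposed array 1, and 22.9 to 31.3 on the others. The low ratio was thus more pronounced in the exposed than in the unexposed pool of replicate 1, while the background was raised in both. Labelling and hybridization were done at either of 2 core facilities, and the methods do not say which arrays each handled. Whether RNA quality or facility had a part in the values of replicate 1 was not tested. The member genes and the related genes with an unadjusted p under 0.05 are therefore given also without replicate 1. Summed signals of some tissue markers separated these arrays too, whereas those of accessory gland, ejaculatory bulb, fat body and muscle did not. The summed signal of 5 female genes was 5514 on exposed array 1 and 4481 on unexposed array 1, and lay between 1201 and 1395 on the other 4 arrays, whereas that of 2 photoreceptor genes was 352 on exposed array 1 and 469 on unexposed array 1, and 876 to 1165 on the others.

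**Figure D1:**
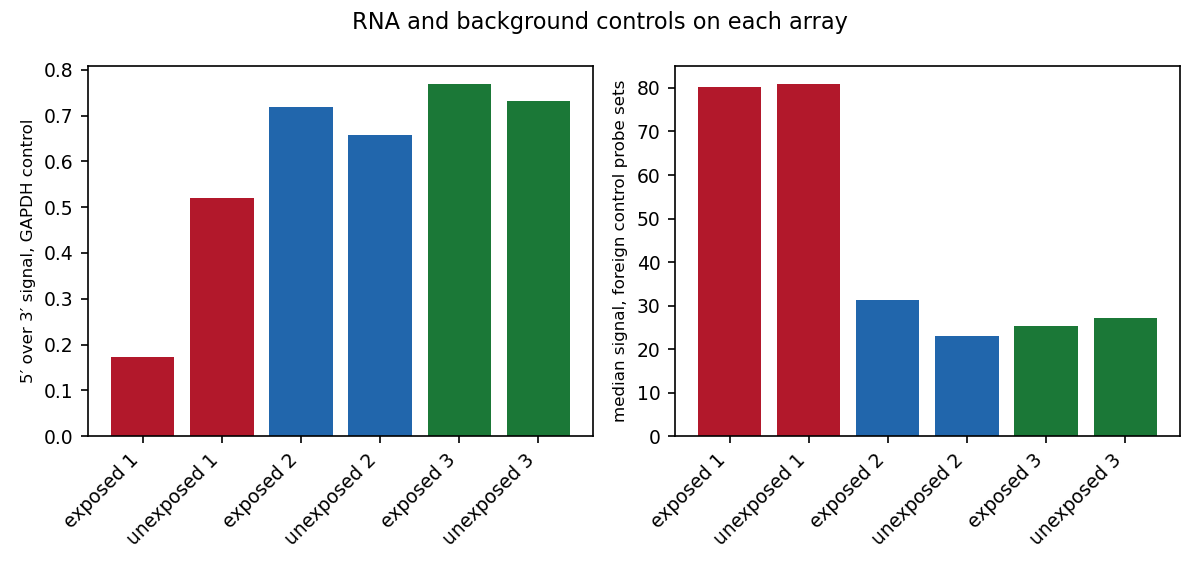
Bars show the ratio of 5′ to 3′ signal of the GAPDH control (left) and the median signal, in intensity units, of 23 control probe sets for transcripts foreign to flies (right) on each of the 6 arrays, coloured by replicate. Exposed array 1 had the lowest GAPDH ratio, 0.172, and both replicate 1 arrays had a foreign control median above 80.

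No haemocyte or melanization gene differed between exposed and unexposed males at a Benjamini-Hochberg adjusted p under 0.05 in limma, blocked by replicate number, and neither did any of the 8251 probe sets tested (0%). By unadjusted p under 0.05, 31 probe sets (0.376%) had higher and 175 (2.12%) had lower signals in exposed males, and none of the 6 tested members was among them. No tested member had exposed signals that all lay above the unexposed signals, a separation seen in 0.255% of all probe sets. None of them was higher in all 3 pairs as deposited (6.23% of all probe sets), although Sr-CI was so after median centring or quantile normalization of the arrays (14.7% and 14.9%), or lower in all 3 pairs (18.4%). What the values show instead is a split by replicate. The 2 prophenoloxidase genes and Sr-CI were brighter in exposed than in unexposed males in replicates 2 and 3. In replicate 1 both prophenoloxidases were dimmer in exposed males, and Sr-CI was near even. This split was noticed after the values were seen.

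PPO1 encodes a prophenoloxidase that crystal cells release into the haemolymph. Its signal was 404, 556 and 901 on exposed arrays 1 to 3, against 598, 368 and 380 on unexposed arrays 1 to 3. Exposed array 3 was the brightest and exposed array 1 lay near the lowest arrays, so that the groups overlapped. The log2 ratios of exposed over unexposed in the 3 pairs were -0.57, 0.59 and 1.24, and the fitted log2 fold change was 0.42 ± 0.37 (SE, n = 3 pairs; limma, adjusted p = 0.905). The spread among exposed pools was thus wider than the difference between the group means. Without replicate 1, both exposed signals exceeded both unexposed signals, and the log2 fold change was 0.92 ± 0.21 (SE, n = 2 pairs; limma, unadjusted p = 0.0118, adjusted p = 1.0). Without replicate 3 it was 0.014, so that the positive value over all pairs rested on that replicate.

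PPO2 encodes the prophenoloxidase that is stored in the crystals from which crystal cells take their name. Its brighter probe set had signals of 253, 458 and 846 on exposed arrays 1 to 3 and of 551, 304 and 303 on unexposed arrays 1 to 3. The order resembled that of PPO1, with exposed array 3 the highest, unexposed array 1 next and exposed array 2 after it. In pair 3 the exposed signal was 2.79-fold the unexposed signal, and in pair 1 it was 0.459-fold. The log2 ratios were -1.12, 0.59 and 1.48 by replicate, and limma fitted a log2 fold change of 0.32 ± 0.52 (SE, n = 3 pairs; limma, adjusted p = 0.927). The direction rested on replicate 3, since without it the log2 fold change was -0.26. Without replicate 1 it was 1.04 ± 0.26 (SE, n = 2 pairs; limma, unadjusted p = 0.0162, adjusted p = 1.0).

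The second probe set of PPO2 did not follow the first. It had dim signals of 27.1, 21.1 and 27.2 on exposed arrays 1 to 3 and of 20.7, 21.8 and 42.2 on unexposed arrays 1 to 3. Only 2 of these 6 signals exceeded the foreign control median of their array, and the groups overlapped (log2 fold change -0.10 ± 0.24 SE, in a fit with no signal filter). At this signal over background, the second probe set cannot be used to check the first.

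The gene lz encodes the Runx transcription factor Lozenge, which is required for the crystal cell fate. Its signals were 23.3, 10.2 and 14.2 on exposed arrays 1 to 3 and 13.6, 15.8 and 6.69 on unexposed arrays 1 to 3. All 6 lay below the foreign control median of their array, so that a difference in lz was not detectable here. The crystal cell genes were thus represented by PPO1 and PPO2 alone, whose products are also the substrate of the melanization cascade.

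**Figure D2:**
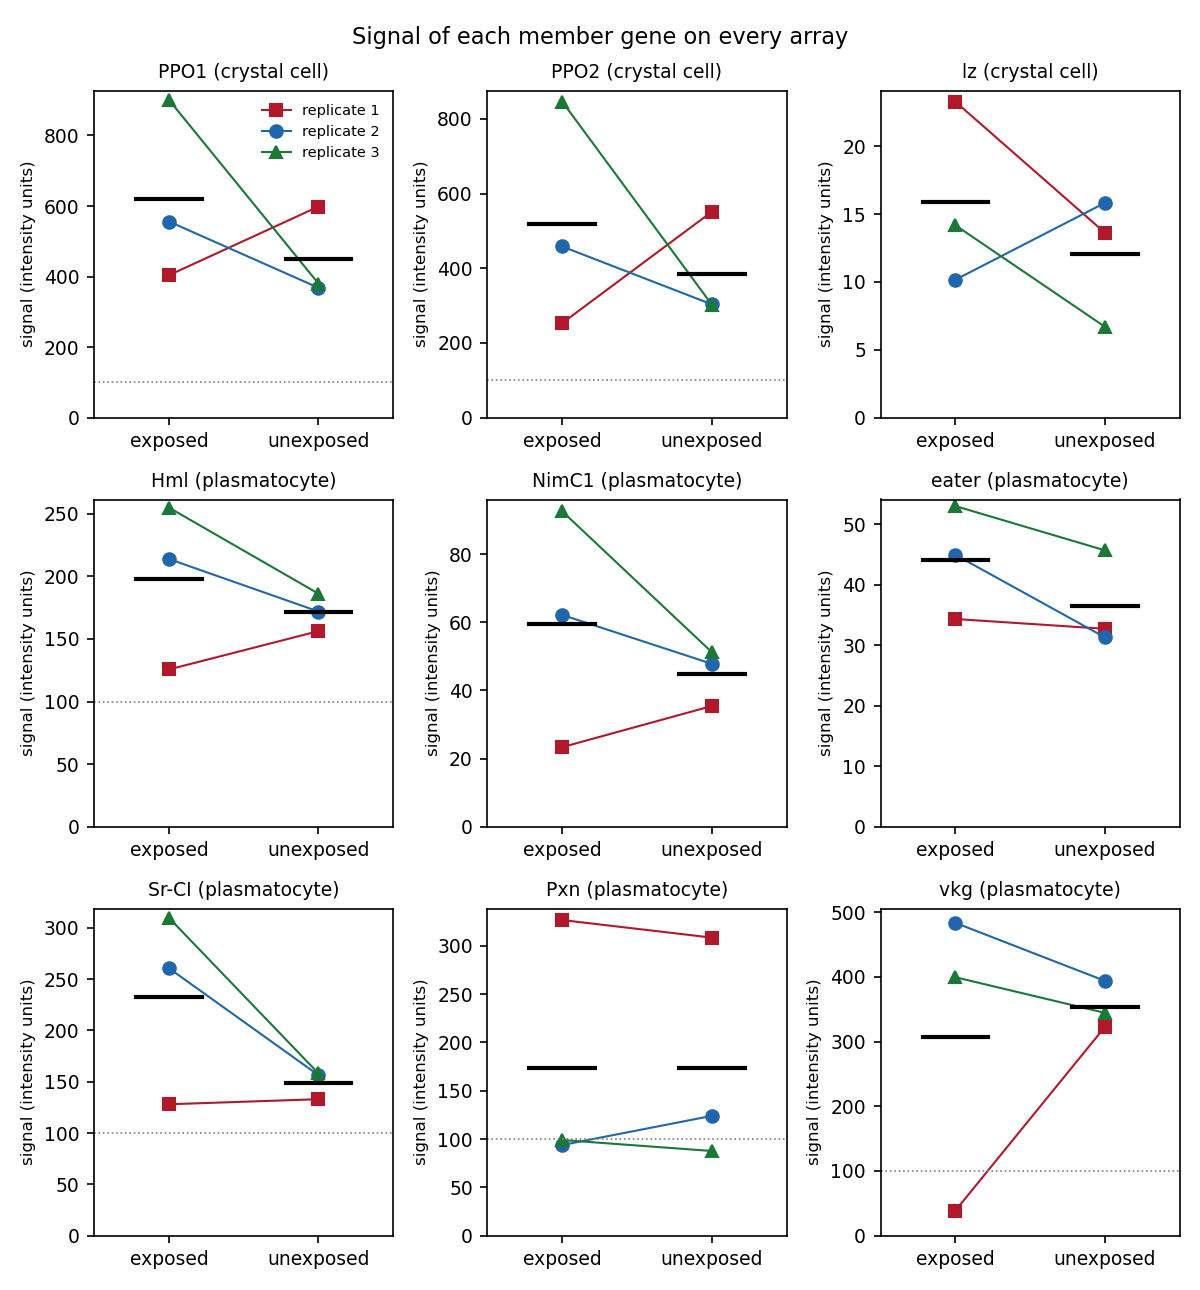
Each panel plots the signal, in intensity units, of 1 gene on exposed (left) and unexposed (right) arrays. Lines join the arrays of a replicate, black bars are group means and the dotted line is the filter signal of 100. For PPO1, PPO2, Hml and vkg the line of replicate 1 runs up toward the unexposed array while those of replicates 2 and 3 run down.

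Among plasmatocyte genes, Sr-CI showed the largest positive log2 fold change. It encodes a class C scavenger receptor that takes part in the uptake of bacteria. Signals were 128, 260 and 310 on exposed arrays 1 to 3, against 133, 156 and 158 on unexposed arrays 1 to 3. The unexposed arrays lay close together, while the exposed arrays fell into a low one (replicate 1) and a higher pair. On the replicate 1 arrays Sr-CI stood nearer to the foreign control medians (80.1 exposed, 81.0 unexposed) than on the others (medians of 22.9 to 31.3). A difference in pair 1 was thus less readable than in pairs 2 and 3. The log2 ratios were -0.05, 0.74 and 0.97, of which the first turned to 0.26 after median centring and to 0.20 after quantile normalization. The fitted log2 fold change was 0.55 ± 0.24 (SE, n = 3 pairs; limma, unadjusted p = 0.0708, adjusted p = 0.905). Without replicate 1 it was 0.85 ± 0.14 (SE, n = 2 pairs; limma, unadjusted p = 0.00378, adjusted p = 1.0), and without replicate 3 it was 0.34.

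Hml encodes Hemolectin, a large clotting protein that serves as a marker of differentiated plasmatocytes. Its signals were 126, 214 and 255 on exposed arrays 1 to 3 and 156, 172 and 186 on unexposed arrays 1 to 3. Those of replicate 1 stood nearer to the foreign control medians of their arrays than the others did. The exposed array was the lower one in pair 1 and the higher one in pairs 2 and 3, by log2 ratios of -0.32, 0.32 and 0.45, and after median centring the first was close to 0 (-0.0015). The groups overlapped, and the log2 fold change of 0.15 ± 0.20 (SE, n = 3 pairs; limma, adjusted p = 0.919) was smaller than its error. Without replicate 1 it was 0.38 ± 0.13 (SE, n = 2 pairs; limma, unadjusted p = 0.0430, adjusted p = 1.0), and without replicate 3 it was 9.2e-06.

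NimC1 and eater encode Nimrod-type receptors with EGF-like repeats that bind bacteria for phagocytosis. NimC1 signals were 23.3, 62.2 and 92.6 on exposed arrays 1 to 3 and 35.4, 47.8 and 51.2 on unexposed arrays 1 to 3. The eater signals were 34.3, 44.9 and 53.0 on exposed arrays 1 to 3 and 32.7, 31.3 and 45.7 on unexposed arrays 1 to 3. Both genes were dim, and on the replicate 1 arrays both lay below the foreign control median, so that pair 1 measured neither. In pairs 2 and 3 the log2 ratios were 0.38 and 0.85 for NimC1 and 0.52 and 0.21 for eater. In a fit with no signal filter, the log2 fold change was 0.21 ± 0.32 for NimC1 (adjusted p = 0.934) and 0.27 ± 0.16 for eater (adjusted p = 0.920), with SE and n = 3 pairs in limma. From replicates 2 and 3 it was 0.62 ± 0.20 for NimC1 (SE, n = 2 pairs; limma, unadjusted p = 0.0470, adjusted p = 1.0) and 0.37 ± 0.17 for eater (unadjusted p = 0.111). With signals under 50 set to 50, the value of eater over all pairs was 0.028.

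Pxn encodes Peroxidasin, an enzyme that crosslinks collagen IV in the basement membrane. Its signals of 327, 93.8 and 99.0 on exposed arrays 1 to 3 and of 309, 124 and 87.6 on unexposed arrays 1 to 3 separated the replicates and not the treatments. Both replicate 1 arrays were the brightest for Pxn, unlike for Sr-CI or Hml. The log2 ratios were 0.08, -0.40 and 0.18, with a log2 fold change of -0.05 ± 0.17 (SE, n = 3 pairs; limma, adjusted p = 0.963), and -0.11 ± 0.19 without replicate 1 (SE, n = 2 pairs). Its sign turned with the scaling of the arrays (0.10 after quantile normalization and 0.07 after median centring).

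The gene vkg encodes Viking, the α2 chain of collagen IV, which is made by haemocytes and fat body. Its signals were 38.8, 483 and 399 on exposed arrays 1 to 3, against 323, 394 and 344 on unexposed arrays 1 to 3. Exposed array 1 alone lay far below the rest, also under the foreign control median of that array. The log2 fold change of -0.85 ± 0.74 (SE, n = 3 pairs; limma, adjusted p = 0.905) was set by that array, since the pairs had log2 ratios of -3.06, 0.30 and 0.21. Without replicate 1 it was 0.26 ± 0.13 (SE, n = 2 pairs; limma, unadjusted p = 0.117). Exposed array 1 was also the array with the lowest 5′ to 3′ ratios, whose part in the vkg signal was not tested.

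**Figure D3:**
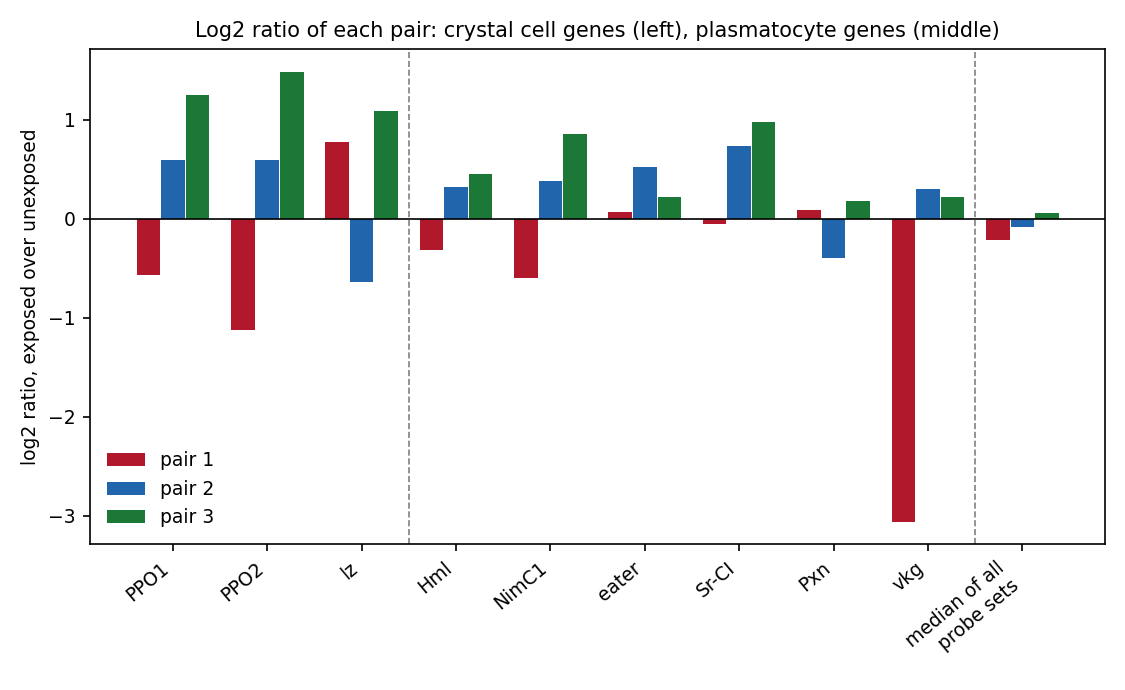
Bars show the log2 ratio of exposed over unexposed signal in each pair of arrays, for crystal cell genes (left), plasmatocyte genes (middle) and the median of the 8251 probe sets tested (right). In pair 1 the bars of PPO1, PPO2, Hml and vkg point down, with vkg at -3.06, as does that of NimC1, whose signals in that pair lay below the foreign control median, and that of Sr-CI is near 0 at -0.05 (0.26 after median centring), while in pairs 2 and 3 all of these point up.

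As deposited, the replicate split was shared by most tested members. The exposed signal was lower in pair 1 and higher in pairs 2 and 3 for PPO1, PPO2, Hml, Sr-CI and vkg. These were 5 of the 6, beside 15.2% of all probe sets tested. After median centring (8.42%) or quantile normalization (10.2%) the split held for 4 of the 6, since Sr-CI was higher in pair 1. Of these 4, Hml was close to even in pair 1 after median centring (-0.0015). The exposed vkg signal in pair 1 lay under the foreign control median. In pair 1 the median log2 ratio of all probe sets was itself -0.21 as deposited. For the 5 genes with the split as deposited, exposed signals 2 and 3 both exceeded unexposed signals 2 and 3, whichever way these arrays are paired. This held for 16.2% of all probe sets. In the size of the differences, 3 members lay near the edge of the distribution. PPO1, PPO2 and Sr-CI had log2 ratios over 0.5 in both pair 2 and pair 3, as did 31 of the 8251 probe sets (0.376%), and the same 3 did so after median centring (33 probe sets) and quantile normalization (76). Both the members and this limit of 0.5 were chosen with the values known, so that the share describes these arrays and tests nothing.

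By mean log2 ratio over replicates 2 and 3, 7 of the 8251 probe sets tested ranked at or above PPO2, 10 at or above PPO1 and 12 at or above Sr-CI, each count including the gene itself. The counts were 162 for Hml, 468 for vkg and 6081 for Pxn. Over all 3 pairs the ranks were lower for the first 3, at 186 for PPO2, 84 for PPO1 and 34 for Sr-CI. Sr-CI thus lost least by the inclusion of replicate 1. In limma without replicate 1, 4 of the 6 tested members (PPO1, PPO2, Hml and Sr-CI) were higher at an unadjusted p under 0.05, against 1.55% of all probe sets, and none at an adjusted p under 0.05, a threshold that 2 probe sets passed (0.0242%). The members were chosen with results of these data known, and the split was noticed after the values were seen. These ranks and shares thus describe the arrays and test nothing. With 2 pairs, the adjusted p depended on the scaling of the arrays and on the pooled spread. After quantile normalization of these 4 arrays, the adjusted p was 0.368 for PPO2, 0.343 for PPO1 and 0.245 for Sr-CI. After median centring, limma used 1 common spread for all probe sets, and the adjusted p was 0.000103 for PPO2, 0.00144 for PPO1 and 0.00567 for Sr-CI.

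**Figure D4:**
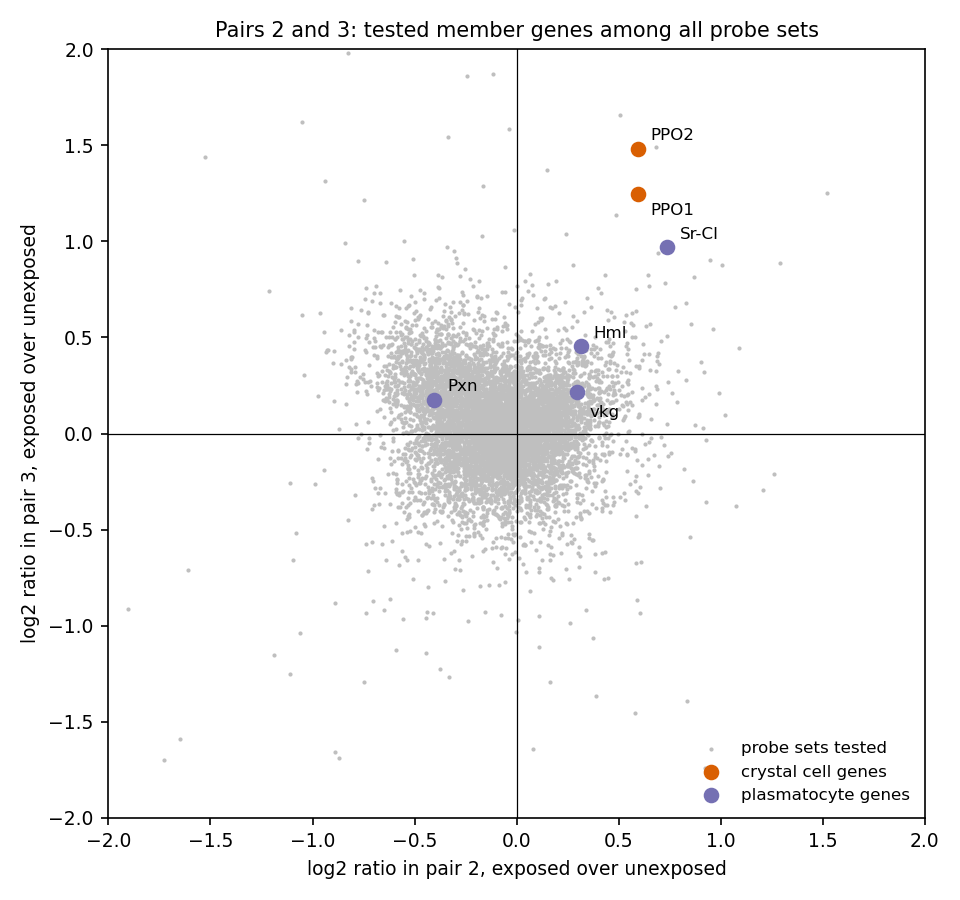
Each point is a probe set that passed the signal filter, placed by its log2 ratio of exposed over unexposed signal in pair 2 (horizontal) and in pair 3 (vertical), with 35 probe sets outside the axes. PPO2, PPO1 and Sr-CI lie at the edge of the cloud in the upper right, Hml and vkg nearer its centre, and Pxn left of 0.

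The values of crystal cell and plasmatocyte genes can be set side by side. The median log2 fold change was 0.37 over the 2 crystal cell genes tested and 0.05 over the 4 plasmatocyte genes, beside -0.09 over all probe sets. Without replicate 1 it was 0.98 for the crystal cell genes and 0.32 for the plasmatocyte genes, beside -0.02 over all probe sets. In pair 1 the medians were -0.85, -0.18 and -0.21, in the same order. Without replicate 3 both medians were below 0, at -0.13 for the crystal cell genes and -0.080 for the plasmatocyte genes. The single gene with the widest range of log2 ratios was the plasmatocyte gene vkg. With 2 and 4 genes, no test of this difference was made.

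The spread among pools can be set beside these differences. In exposed males the coefficient of variation over the 3 arrays was 41.1% for PPO1, 58.0% for PPO2 and 40.4% for Sr-CI. In unexposed males it was 28.9% for PPO1, 37.1% for PPO2 and 9.41% for Sr-CI. For Hml it was 33.4% in exposed and 8.73% in unexposed males, and for vkg 76.9% in exposed and 10.3% in unexposed males. For Pxn, which was brightest in replicate 1, it was 76.8% in exposed and 68.3% in unexposed males. Hml, Sr-CI and vkg were thus the more even genes across the unexposed pools, and PPO1, PPO2 and Pxn varied in both groups. A mean of 620 ± 255 for PPO1 in exposed males and of 449 ± 130 in unexposed males (SD, n = 3 each) sums up values that do not overlap in replicates 2 and 3 and are inverted in replicate 1.

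Other genes of these processes were described from 8 lists with 77 further genes, of which 67 had a probe set and 42 passed the filter. In limma, 0 of the 42 reached an adjusted p under 0.05, and the unadjusted p was under 0.05 for NimB5, which was higher in exposed males, and for Spn28Dc and mys, which were lower. The replicate split was present in 5 of the 42, near the 15.2% of all probe sets, and SPARC alone had log2 ratios over 0.5 in pairs 2 and 3 (0.376% of all probe sets). None of the 5 further tested genes of the prophenoloxidase cascade showed the split. Their median log2 fold change was -0.25 over all pairs and -0.06 without replicate 1. Among them Spn28Dc, a serpin that restrains melanization, had signals of 82.0, 114 and 104 on exposed arrays 1 to 3, against 152, 175 and 189 on unexposed arrays 1 to 3. Its exposed signals all lay below its unexposed signals, as did those of pes and msn among the other tested genes of the lists. The share of all probe sets with this separation was not counted. Spn28Dc was lower in 3 of 3 pairs, as were 18.4% of all probe sets. Its signal on exposed array 1 lay close to the foreign control median of that array (80.1). The log2 fold change was -0.79 ± 0.13 (SE, n = 3 pairs, limma, unadjusted p = 0.00231, adjusted p = 0.905). Without replicate 1 it was -0.74 ± 0.14 (SE, limma, unadjusted p = 0.00638). Spn27A, the serpin that inhibits the prophenoloxidase-activating protease, and Spn77Ba, a serpin of the tracheae, had log2 fold changes of -0.25 ± 0.17 and -0.06 ± 0.13 (SE). Sp7, a protease of the cascade, had a log2 ratio of -1.48 in pair 1, 0.39 in pair 2 and -0.07 in pair 3. In pair 1 both signals of Spn27A and the exposed signal of Sp7 lay below the foreign control median.

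PPO3, the prophenoloxidase of lamellocytes, was named after its values were seen. Its signals were 304, 51.7 and 31.3 on exposed arrays 1 to 3 and 353, 37.0 and 31.3 on unexposed arrays 1 to 3, below the filter. As for Pxn, both replicate 1 arrays were far brighter than the others, and the treatments overlapped. The 8 tested genes of melanin synthesis had a median log2 fold change of -0.14 (-0.04 without replicate 1), and only e had the replicate split. The exposed signal of e in pair 1 lay below the foreign control median. Ddc, the dopa decarboxylase that makes dopamine, was at -0.29 ± 0.15 (SE), AANAT1, which acetylates dopamine, at -0.08 ± 0.13 and t, a hydrolase of β-alanyl amines, at -0.17 ± 0.17.

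The other tested genes in the list of scavenger and phagocytosis receptors had a median near that of all probe sets. These 4 genes beside Sr-CI had a median of -0.06 (-0.02 without replicate 1). Tep4, a thioester protein, was at 0.01 ± 0.13, drpr, the receptor for dying cells, at -0.08 ± 0.12 and crq, a CD36-type receptor, at -0.03 ± 0.16 (SE). A dimmer tested probe set of drpr was at -0.34 ± 0.19 (SE). The 3 tested Nimrod genes had a median of 0.03 over all pairs. Without replicate 1 it was 0.21, beside -0.02 over all probe sets. NimB5, a secreted Nimrod protein, had signals of 17.2, 160 and 143 on exposed arrays 1 to 3 and of 5.73, 103 and 125 on unexposed arrays 1 to 3. It was higher in 3 of 3 pairs, as were 6.23% of all probe sets. Its log2 fold change was 0.80 ± 0.30 (SE, limma, unadjusted p = 0.0456, adjusted p = 0.905). But in pair 1, which had the largest ratio, both of its signals lay below the foreign control median. Without replicate 1 its log2 fold change was 0.41 ± 0.17 (SE, n = 2 pairs; limma, unadjusted p = 0.0715). NimB2 was at -0.01 ± 0.14 and NimB4 at 0.03 ± 0.17 (SE). Of the haemocyte transcription factors and receptors, 3 were tested, with a median of -0.14 (-0.10 without replicate 1). They were srp, the GATA factor of blood and fat body, at -0.27 ± 0.16, Pvr, the PDGF and VEGF receptor of haemocytes, at -0.14 ± 0.13, and its ligand Pvf3 at 0.12 ± 0.15 (SE). In pair 1 the exposed srp signal lay below the foreign control median.

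Among basement membrane genes, SPARC and Col4a1 had the split also seen for vkg. SPARC, a collagen-binding protein, had signals of 425, 1711 and 1722 on exposed arrays 1 to 3 and of 1068, 1156 and 1218 on unexposed arrays 1 to 3. As for vkg, exposed array 1 was the lowest and exposed arrays 2 and 3 were the highest, with log2 ratios of -1.33, 0.57 and 0.50 and a log2 fold change of -0.09 ± 0.43 (SE, n = 3 pairs; limma, adjusted p = 0.971). Without replicate 1 it was 0.53 ± 0.13 (SE). Col4a1, the partner chain of Viking and its neighbour in the genome, had signals of 171, 370 and 308 on exposed arrays 1 to 3 and of 196, 320 and 270 on unexposed arrays 1 to 3. Its ratios of -0.20, 0.21 and 0.19 ran the same way as those of vkg, with a far smaller drop in pair 1. Ppn, a proteoglycan-like matrix protein, was at -0.29 ± 0.24 (SE). The 6 tested genes of the list had a median of -0.11 (-0.003 without replicate 1).

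Lamellocyte genes, which mark the flattened cells that encapsulate parasites, had a median of -0.09 over 5 tested genes (-0.16 without replicate 1). Among them mys, a β-integrin that many other tissues also express, had signals of 487, 656 and 755 on exposed arrays 1 to 3 and of 715, 881 and 928 on unexposed arrays 1 to 3. It was lower in 3 of 3 pairs, as were 18.4% of all probe sets. Its log2 fold change was -0.43 ± 0.13 (SE, limma, unadjusted p = 0.0232, adjusted p = 0.905). Without replicate 1 it was -0.36 ± 0.13 (SE, limma, unadjusted p = 0.0505). The GPI-anchored lamellocyte marker atilla was at 0.27 ± 0.13 and betaTub60D, a tubulin also used in muscle and testis, at -0.03 ± 0.12 (SE). A dimmer tested probe set of betaTub60D was at -0.58 ± 0.35 (SE), with both pair 1 signals below the foreign control median. The 8 clotting and other haemolymph proteins had a median of 0.01, and of 0.04 without replicate 1. Of these, apolpp, the lipid carrier of the haemolymph, was at 0.02 ± 0.13, Idgf3, a chitinase-like protein, at -0.26 ± 0.13 and fon, a clot component, at 0.05 ± 0.16 (SE). A dimmer tested probe set of apolpp was at -1.17 ± 0.69 (SE), with both pair 1 signals below the foreign control median.

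**Figure D5:**
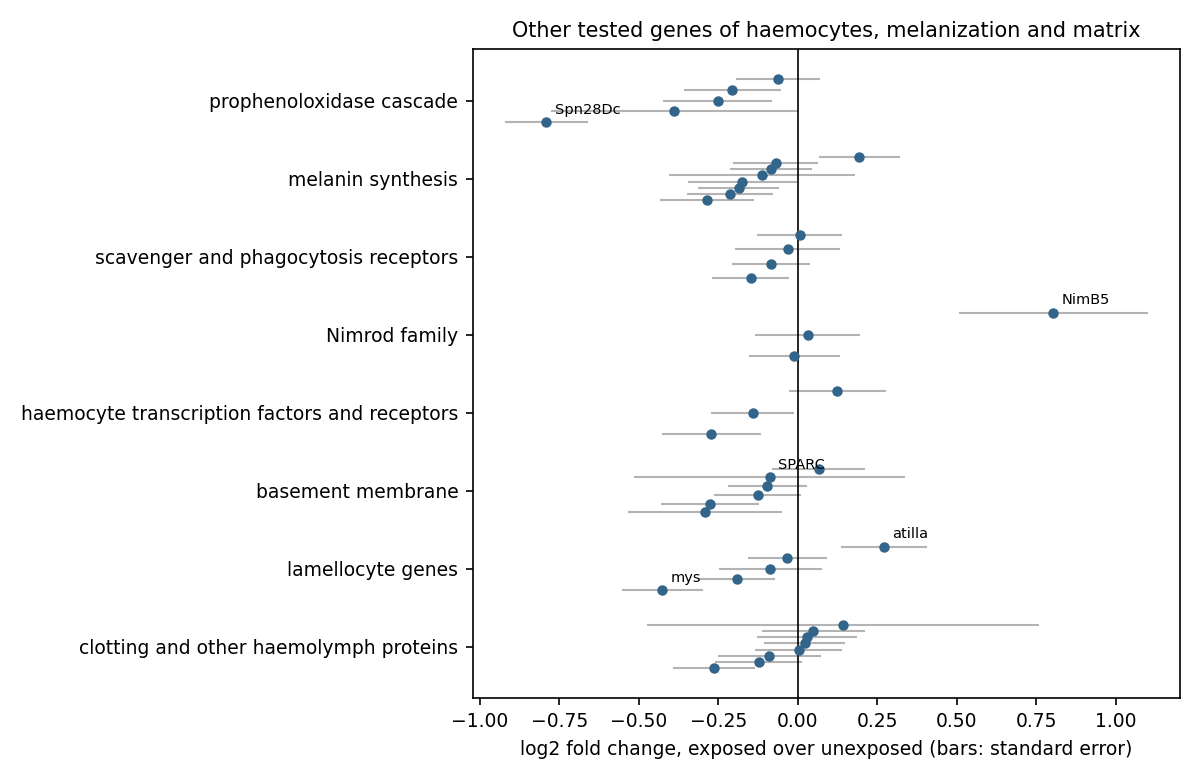
Points show the log2 fold change of exposed over unexposed males and bars its standard error in limma (n = 3 pairs) for the 42 other tested genes, by list. Spn28Dc lies farthest left at -0.79, NimB5 farthest right at 0.80 (0.41 without replicate 1, in which both of its signals lay below the foreign control median) and SPARC has a wide bar around -0.09.

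Several haemocyte products are also made by fat body, and markers of other tissues were read on the same arrays. The summed signal of 4 fat body genes was 6024 to 6517 on exposed arrays and 5428 to 6769 on unexposed arrays, most of it from apolpp. The split was present in fat-spondin and by sign in the brightest probe set of apolpp, whose log2 ratios were small at -0.09, 0.15 and 0.01. A dimmer tested probe set of apolpp had log2 ratios of -3.22, 0.05 and -0.33, without the split. Both of its pair 1 signals lay below the foreign control median. It was absent from Lsp2, with log2 ratios of -0.73, -0.82 and 1.98, and from Fbp1, with -0.27, 0.00 and -0.19. Of these genes fat-spondin had 210, 911 and 909 on exposed arrays 1 to 3 and 402, 624 and 670 on unexposed arrays 1 to 3. Without replicate 1 its log2 fold change was 0.49 ± 0.13 (SE, n = 2 pairs, limma, unadjusted p = 0.0192, adjusted p over 0.05). The part of fat-spondin, and that of fat body RNA, in the vkg values was not tested. Markers of testis (4 genes), accessory gland (4), ejaculatory bulb (2), muscle (3 of 4), photoreceptors (2 of 3), gut (2 of 3) and females (5) were also measured. None was at 0 on any array and none reached an unadjusted p under 0.05 in limma over all 3 pairs.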

How the data were processed

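RNA of 3 exposed and 3 unexposed pools was read on 6 one-colour Affymetrix arrays. The authors deposited a linear intensity per probe set and array. GCOS 1.2 is listed in the submitters' processing notes, beside which the methods describe dChip summaries. For the summary behind the deposited values and for its scaling, the source is unknown here. The number of arrays limits the precision. Of 14010 entries, 44 controls were left out, and 12443 of all entries were paired with 1 gene through the platform annotation, 327 with more than 1, while 1240 stayed unnamed. Each gene is represented by its brightest probe set.

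Signals under 1 were set to 1 before log2, with no further normalization. Exposed and unexposed arrays were compared in limma 3.58.1 (R 4.3.3), with a filter of 100 on 3 arrays taken from the methods and p-values adjusted by Benjamini-Hochberg over all 8251 probe sets tested. The p-values rest on the spread among these pools only. In limma the spread of each probe set is also drawn toward a spread pooled over all probe sets. A p-value is thus no measure of the spread of that gene alone. The replicate number entered as a block because the methods describe parallel collection and a paired test. Same-numbered arrays deviated together from their group means (r = 0.844, 0.76 and 0.78 over probe sets). But so did exposed 3 with unexposed 2 (0.815) and exposed 2 with unexposed 3 (0.8055), since replicate 1 stood apart from both others. Both crossed values exceeded those of replicates 2 and 3 by number, so that the pairing of these 2 replicates rests on the methods alone. The code was tested on simulated data.

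The member genes, the 8 lists of related genes and the tissue markers were chosen with earlier results of these data known. Related genes are named where the unadjusted p was under 0.05 and the direction was the same in all pairs, and otherwise for the 3 brightest of a list. Alternatives changed the block, the scaling, the filter, the floor and the variance model, left out each replicate, or used a paired Cyber-T test rewritten here (window of 101, prior weight of 10 observations, both chosen without guidance from the methods). Quantile normalization and median centring of replicates 2 and 3 alone were added after the data were seen.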

Additional observations from a re-analysis of the deposited data

How the results depend on the processing

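Of 117 values of member genes under the alternatives, 106 kept their direction and their side of an adjusted p of 0.05, 8 changed sign and 3 passed the threshold. Changes of the block, the filter or the variance model and the Cyber-T test leave the log2 fold change as it is. The direction could not change under these, so that the count of 106 is no measure of stability. A value that fell close to 0 with its sign kept is also among the 106. The number of probe sets at an unadjusted p under 0.05 was 206 in the fit with the replicate block and 10 with no replicate block, 311 after quantile normalization, 373 with no filter, 318 by paired Cyber-T and 121 to 301 on leaving out each replicate. Those higher and lower were 31 and 175, but 189 and 122 after quantile normalization and 135 and 95 after median centring, which moved the median log2 fold change of all probe sets to 0.01 and 0.03, against -0.09. The number at an adjusted p under 0.05 was 0, but 1 by Cyber-T and 0 to 2 on leaving out each replicate.

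The number of members at an unadjusted p under 0.05 was 0, but 1 (Sr-CI) after quantile normalization, median centring, a signal of 100 on all 6 arrays or Cyber-T, and 0 to 4 on leaving out each replicate. Pxn turned to 0.10 after quantile normalization and 0.071 after median centring. On leaving out each replicate, log2 fold changes ranged between 0.014 and 0.92 for PPO1, 9.2e-06 and 0.38 for Hml, -0.26 and 1.04 for PPO2, -0.11 and 0.62 for NimC1, -0.16 and 0.13 for Pxn, and -1.42 and 0.26 for vkg, whose sign turned without replicate 1.

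With replicates 2 and 3 alone, quantile normalization gave 339 probe sets at an unadjusted p under 0.05, 4 of them members, and 9 at an adjusted p under 0.05, with a plasmatocyte median of 0.34 and vkg at 0.28. Median centring gave 75 at an adjusted p under 0.05, 3 members at an unadjusted p under 0.05 and vkg at 0.28. PPO1, PPO2 and Sr-CI passed the adjusted threshold there at 0.94, 1.06 and 0.88. The causes were not tested. Averaging the probe sets of PPO2 gave no separate value, since 1 of the 2 passed the filter, and lz had none with signals under 50 set to 50.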
